A study of Mus musculus with 2 samples.

Results

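Cells sorted as mKO2low were compared with cells sorted as mKO2high, both from the bone marrow of the Fucci mouse, with 48 cells in each gate and 96 of the 192 cells of the study in all. Members were chosen by the gate recorded for each cell in the deposited cell table, and no measured value entered that choice. All cells came from C57BL/6 mice of 8 weeks that carry the Fucci transgenes, in which orange mKO2 is fused to part of Cdt1 and green mAG to part of geminin. Both gates sat in 1 library, prepared with a modified Smart-seq2 method that keeps the 3' ends of transcripts, and a second library held the mKO2neg and mAG+ gates. The sources name no animals or cultures behind the cells, no promoter for the transgenes and no surface markers for the sort, so each gate is 1 sample and none of the values below has a replicate check.

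The Fucci reporter reads the cell cycle through protein breakdown. The Cdt1 fragment accumulates while a cell is in G0 or G1 and is destroyed as DNA replication starts, whereas the geminin fragment is present from S phase until mitosis. A cell that has rested for long in G0 has had time to gather mKO2, whereas one that has just divided holds less. Adult blood stem cells rest in G0 most of the time, and before such a cell replicates it makes the MCM helicase and the enzymes of nucleotide synthesis.

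The labels of the deposited count rows were read with a displacement of 1 gene: the counts of a gene were taken from the row carrying the identifier of the gene just before it in GENCODE M21 order. Read this way, protein-coding genes held 92.6% of all counts, against 51.9% when the labels were read as deposited and 53.1% with the row of the following gene. Cytosolic ribosomal proteins held 20.1% of counts, against 0.180% and 0.183%. All 15 of a list of genes abundant in most cells passed 1000 counts over the 192 cells, against 1 and 0. Every value below depends on this reading. For 1257 genes, the annotated gene just before is not among the deposited rows and the nearest earlier row was used; of the genes given below with values, 5 are of this kind, namely Mcm4, Angpt1, Dusp5, H2-K1 and Ifit1.

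Depth differed between the gates. The mKO2high cells held 934036 counts, with a median of 14510.5 per cell and a range from 0 to 83162, and the mKO2low cells 1703263, with a median of 26851.5 and a range from 7436 to 117134. In mKO2high, 4 cells were under 1000 counts and 9 were under 5000, and in mKO2low none were. The median cell had 2541.5 genes with a count in mKO2high and 3507.5 in mKO2low. With every cell thinned to 5000 counts, which kept 39 and 48 cells, the medians were 1790 and 1899.5 genes. One mKO2high cell of 16304 counts had 43.7% of them in mitochondrially encoded genes, where the next highest cell of the gate had 5.87%.

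Markers of blood stem cells were counted in both gates. All 12 genes of a stem cell marker list were counted in each, with a summed level of 3245 CPM (counts scaled to the same total in each gate) in mKO2high and 2588 CPM in mKO2low. Single cells ranged from 711 to 7770 CPM in mKO2high, leaving out the 4 shallow cells, and from 1289 to 7127 CPM in mKO2low. Of the other cell types, no basophil or mast cell marker (Mcpt8, Prss34, Cpa3, Ms4a2) had a count in either gate. Markers of the neutrophil and monocyte lineage summed to 1509 CPM in mKO2high and 1525 CPM in mKO2low, and erythroid ones to 241 and 344 CPM. Lyz2 (988 and 1754 counts) and Prtn3 (331 and 730) held most of the neutrophil and monocyte counts. The higher erythroid sum lay mostly in Hbb-bt (141 and 483 counts), while Hba-a1 (log2 ratio -0.92) and Hbb-bs (-0.43) were lower in mKO2low. A fuller erythroid list, most of its counts in Car2, summed to 3002 CPM in mKO2high and 2492 CPM in mKO2low. Of its 10 measured genes 4 were higher in mKO2low and 6 lower. Megakaryocyte markers summed to 314 and 143 CPM. B and T cell markers summed to 81.4 and 102 CPM, with Cd79a and Cd3e at 0 in both gates and Cd79b, a subunit of the B cell receptor, at 67 counts in 14 mKO2high cells and 167 counts in 19 mKO2low cells. Macrophage and dendritic cell markers summed to 21.4 and 12.9 CPM. The part of these cell types in the results below was not tested. Both gates held cells with Xist and no Y-linked counts (17 in mKO2high, 24 in mKO2low) and cells with Y-linked counts and no Xist (8 and 10), and 3 cells of each had both.

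Of 10901 genes with at least 10 counts over both gates, 5690 had a higher CPM in mKO2low and 5211 a lower or equal one, with a median log2 ratio (mKO2low over mKO2high) of 0.05. A ratio of at least 2-fold was reached by 19.6% of these genes toward mKO2low and by 15% toward mKO2high. Among the 4551 genes with at least 100 counts the shares were 7.95% and 7.05%. With every cell at 5000 counts the shares were 11% and 9.45% of 6399 genes. The count of members past 2-fold in each group of genes below is read against 19.6% and 15%. Where only members with at least 100 counts are taken, it is read against 7.95% and 7.05%.

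**Figure D1:**
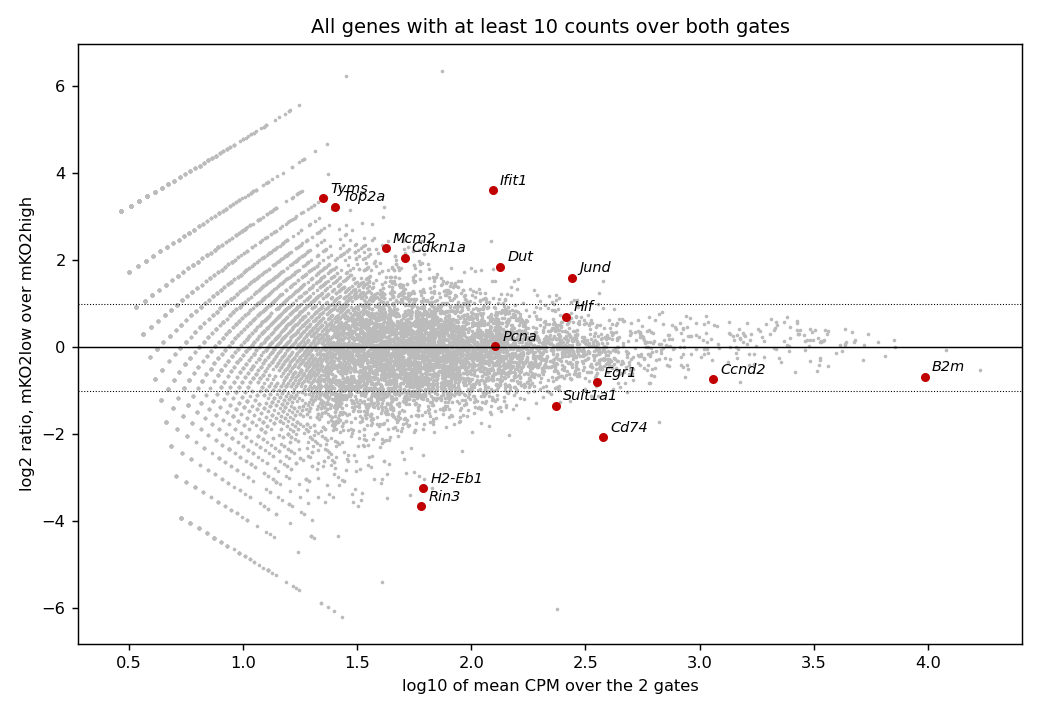
Each point is 1 of the 10901 genes with at least 10 counts, with the log10 of its mean CPM over both gates on the horizontal axis and its log2 ratio of mKO2low over mKO2high on the vertical axis. Dotted lines mark 2-fold, named genes are red, and the spread narrows as the level rises, and B2m, an abundant gene, has a ratio under 2-fold.

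Genes of DNA replication were higher in mKO2low, and the excess was carried by a small number of cells. Of 20 measured replication licensing genes, 16 were higher in mKO2low and 12 were at least 2-fold higher, beside 19.6% of all genes, and 1 was at least 2-fold lower. Their median log2 ratio was 1.19 pooled, 0.83 when all cells weighed the same and 0.75 for the 12 genes that kept 10 counts at 5000 counts per cell. With the 2 genes that had no mKO2high count set at the floor of 3 counts, the median was 1.18. Of 44 measured genes of DNA synthesis and S phase, 35 were higher and 21 at least 2-fold higher, with a median of 0.99 pooled and 0.35 at equal depth.

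All 6 subunits of the MCM2 to MCM7 helicase, which unwinds DNA at the replication fork, were higher in mKO2low, from 295 CPM summed over the complex in mKO2high to 647 CPM in mKO2low. Mcm2 had 13 counts in 10 mKO2high cells and 120 counts in 24 mKO2low cells, or 13.9 and 70.5 CPM. Its log2 ratio was 2.28 pooled, with an exact binomial 95% interval from 1.51 to 3.29, and 1.61 at equal depth. This interval covers counting error only, as all intervals of log2 ratios here do. The other subunits ranged from 0.83 for Mcm6 (99.6 CPM in mKO2high, 177 CPM in mKO2low) to 1.28 for Mcm5 (39.6 and 97.5 CPM), with Mcm4 at 0.97, Mcm7 at 1.04 and Mcm3 at 1.26. The order of the 6 did not hold at equal depth, where Mcm6 was at -0.33 and Mcm5 at 1.77.

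Licensing of an origin needs Cdt1 and Cdc6, which load the helicase, and geminin (Gmnn) holds Cdt1 in check. Cdt1 had 4 counts in mKO2high and 60 in mKO2low, with a log2 ratio of 2.84 (1.61 to 4.96) that was 0.88 at equal depth. Gmnn had 17 and 91 counts (log2 ratio 1.52, from 0.80 to 2.39), and 0.78 without the cell that held the most of it. Cdc6 had no count in mKO2high and 14 counts in 3 mKO2low cells. Pooled, both genes whose protein fragments make the reporter were thus higher at the RNA level in the gate with less of the Cdt1 reporter. In mKO2low, 55 of the 60 Cdt1 counts and 68 of the 91 Gmnn counts lay in 6 cells, described below. Whether reads from the transgenes entered these counts is not given.

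Among enzymes that supply deoxynucleotides, those of thymidylate synthesis were higher in mKO2low and the large subunit of ribonucleotide reductase was not. Dut, the dUTPase, had 54 counts in 14 mKO2high cells and 357 in 32 mKO2low cells. Its level was 57.8 CPM in mKO2high and 210 CPM in mKO2low, a log2 ratio of 1.84 (1.44 to 2.30). At 5000 counts per cell Dut was counted in 17.9% of mKO2high cells (Clopper-Pearson 95% interval 7.54% to 33.5%) and in 45.8% of mKO2low cells (31.4% to 60.8%). These intervals overlap. Intervals of such shares treat the cells of a gate as independent draws, and cells are not replicates of a gate. Thymidylate synthase (Tyms) and thymidine kinase (Tk1), which make thymidylate, had 3 and 2 counts in mKO2high and 71 and 55 in mKO2low. The lower interval limits of their log2 ratios were 2.09 and 1.99, and at equal depth the ratios were 2.37 and 1.13. Rrm1, the large subunit of ribonucleotide reductase, had 64 and 86 counts (log2 ratio -0.43, from -0.92 to 0.05), and Rrm2, its small subunit, had 0 and 8. The last 2 were named after their values were seen.

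The sliding clamp and its loader were divided. Pcna, the sliding clamp, was at 126 CPM in mKO2high and 129 CPM in mKO2low (log2 ratio 0.03, from -0.30 to 0.36), and Rfc2, a subunit of the clamp loader, at 211 and 239 CPM. The other loader subunits were named after their values were seen. Rfc3 was lower in mKO2low, with 126 counts in mKO2high and 75 in mKO2low and a log2 ratio of -1.60 (-2.05 to -1.19). Rfc4 (5 and 63 counts, log2 ratio 2.63) and Rfc5 (29 and 127 counts, 1.24) were higher, though at 0.83 and 0.20 when all cells weighed the same. Rfc1 had a log2 ratio of -0.13 (-0.47 to 0.20) pooled and 0.80 at equal depth.

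Promoter sequence of the replication genes is shown because E2F factors, which switch these genes on as cells leave G1, bind a known set of words. The words TTTCCCGC, TTTCGCGC, TTTGCCGC and TTTGGCGC were searched on both strands in RefSeq windows of 300 bases around each gene's start (GRCm38.p6). Of the 64 measured licensing and S phase genes, 48 matched a window and 21 of these (43.8%) held a word, beside 704 of 27025 genes with a window (2.60%). Stretches of 30 bases on the gene's strand, with the word in capitals, follow for 4 genes that were higher in mKO2low and for Rfc3.
Mcm5: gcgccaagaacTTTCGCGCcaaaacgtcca
Mcm6: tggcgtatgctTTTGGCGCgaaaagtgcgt
Mcm7: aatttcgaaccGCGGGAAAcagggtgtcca
Cdc6: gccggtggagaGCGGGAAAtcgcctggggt
Rfc3: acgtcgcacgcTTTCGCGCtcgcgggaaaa
They lie at chr8:75109345-75109374 (plus strand), chr1:128359797-128359826 (minus), chr5:138172030-138172059 (minus), chr11:98908002-98908031 (plus) and chr5:151651200-151651229 (minus). Holding a word did not go with a larger ratio: the median log2 ratio was 1.00 for the 21 genes with one and 1.24 for the other matched genes. A match is a description of the letters and not of binding.

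The per-cell view showed where the counts lay. The 2 replication lists together made up 0.211% of the counts of the median mKO2high cell and 0.224% of the median mKO2low cell, so the medians were close. The highest mKO2high cell reached 0.612%, and 6 of the 48 mKO2low cells lay above it, up to 1.73%. These 6 cells held 15.8% of the gate's counts and 45.7% of its replication counts. They held 55 of the 60 Cdt1 counts, 50 of the 55 Tk1 counts, all 14 Cdc6 counts and 68 of the 91 Gmnn counts. Mcm2 and Dut were spread more widely, with 52 of 120 and 143 of 357 counts in the 6 cells. The 6 cells are named by this same readout, and their shares describe them only. Their depth, from 20177 to 68361 counts, lay within that of the gate, and across the 48 cells the Spearman correlation of depth with the replication share was 0.17.

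Genes of G2 and mitosis were few in counts in both gates. Of 59 listed genes 39 had at least 10 counts, 3 of them with no mKO2high count. Of the 39, 29 were higher in mKO2low and 15 at least 2-fold higher, beside 19.6% of all genes. Among the 12 with at least 100 counts 9 were higher and 4 at least 2-fold higher, beside 7.95% of all such genes. The median log2 ratio was 0.86 pooled. It was 0.29 at equal depth, where 14 genes kept 10 counts, 9 of them higher and 5 lower. Summed, all listed genes reached 1005 CPM in mKO2high and 1532 CPM in mKO2low, beside 23345 CPM in the mAG+ gate of the other library, where library and gate cannot be told apart. Hmgb2, a chromatin protein of dividing cells, was at 134 CPM in mKO2high and 303 CPM in mKO2low (log2 ratio 1.17, from 0.89 to 1.47). Top2a, the topoisomerase that untangles replicated DNA, had 4 and 79 counts, 48 of the latter in the 6 replication-rich cells (log2 ratio 3.23 pooled and 1.61 at equal depth). Smc4 of the condensin complex (log2 ratio 0.26, from -0.10 to 0.64) and the proliferation antigen Mki67 (4 and 9 counts) had intervals that include 0. The mitotic kinesin Kif20b had 8 and 43 counts (log2 ratio 1.48 pooled and 0.09 at equal depth). Over the cells of each gate, the G2 and mitosis share and the replication share had a Spearman correlation of 0.27 in 48 mKO2low cells and 0.54 in 44 mKO2high cells, both shares being parts of the same cell's total.

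**Figure D2:**
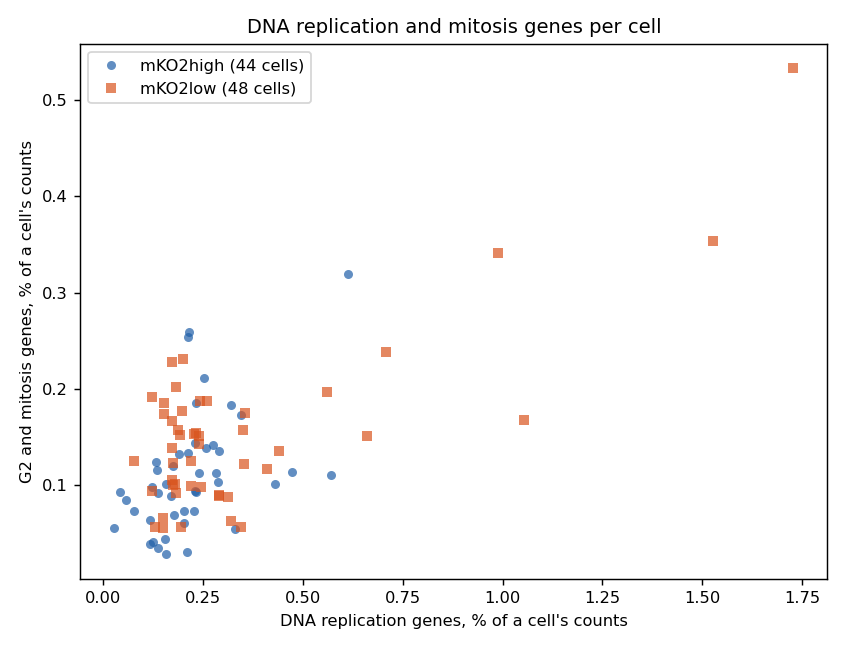
Each point is a cell of at least 1000 counts (44 mKO2high circles, 48 mKO2low squares), with the percent of its counts in DNA replication genes on the horizontal axis and in G2 and mitosis genes on the vertical axis. The 6 mKO2low cells beyond 0.612% on the horizontal axis lie to the right of every mKO2high cell, and the remaining cells of the gates overlap.

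Cyclins and their kinases were divided. Of 28 measured genes 13 were higher and 15 lower in mKO2low, with 6 and 5 past 2-fold and a median of -0.19 pooled and 0.14 at equal depth. Cyclin D2 (Ccnd2), the most counted D cyclin of both gates, which pairs with Cdk4 and Cdk6 in G1, was at 1429 CPM in mKO2high and 857 CPM in mKO2low. Its log2 ratio was -0.74 (-0.85 to -0.63), and the median cell held 1347 CPM in mKO2high and 945 CPM in mKO2low. Ccnd1 had 38 counts in each gate, a log2 ratio of -0.85 that was 0.23 when all cells weighed the same. Cdk4 had a log2 ratio of 0.26 (0.05 to 0.46) pooled and -0.39 at equal depth, Ccnd3 one of -0.23 and 0.22, and Cdk6 one of 0.37 and 0.27. E2f4, a repressive E2F of resting cells, had 14 counts in 9 mKO2high cells and 145 in 25 mKO2low cells, a log2 ratio of 2.45 (1.71 to 3.41). Cdk9, the kinase that releases paused RNA polymerase II, had 13 and 94 counts (log2 ratio 1.93). Cyclin C (Ccnc), of the Mediator kinase module, had 1 count in mKO2high and 37 counts in 15 mKO2low cells, with an interval from 1.78 to 9.68.

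Inhibitors of the cell cycle and genes linked to quiescence made up 0.331% of the counts of the median mKO2high cell and 0.207% of the median mKO2low cell, and 11 of 48 mKO2low cells lay above the mKO2high median. The list shares 7 genes with the immediate early list described below, and these held 1760 of its counts in mKO2high and 2368 in mKO2low. Without them its share was 0.133% in the median mKO2high cell and 0.10% in mKO2low. Of 21 measured genes 9 were higher and 12 lower in mKO2low, 3 and 2 of them past 2-fold. Txnip, which restrains glucose uptake and is abundant in resting stem cells, was at 777 CPM in mKO2high and 489 CPM in mKO2low (log2 ratio -0.67, from -0.81 to -0.52), and -0.20 at equal depth. Klf6, a stress-induced factor, was at 547 and 360 CPM. Among the CDK inhibitors, Cdkn1c (p57), known from resting stem cells, had a log2 ratio of -0.19 (-0.62 to 0.25) and Cdkn1b (p27) had 8 and 22 counts, with an interval from -0.63 to 1.97. Cdkn2d (p19), named after its value was seen, had 141 and 193 counts, a log2 ratio of -0.41 (-0.73 to -0.09) that was -0.03 at equal depth. Cdkn1a (p21), induced by p53, had 18 counts in 4 mKO2high cells and 141 counts in 11 mKO2low cells (log2 ratio 2.06, from 1.39 to 2.90), with 39.1% of its mKO2low per-cell CPM in 1 cell. Foxo3, a factor of stem cell maintenance, was at 19.3 and 44.0 CPM, a log2 ratio of 1.16 that was 0.51 at equal depth.

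**Figure D3:**
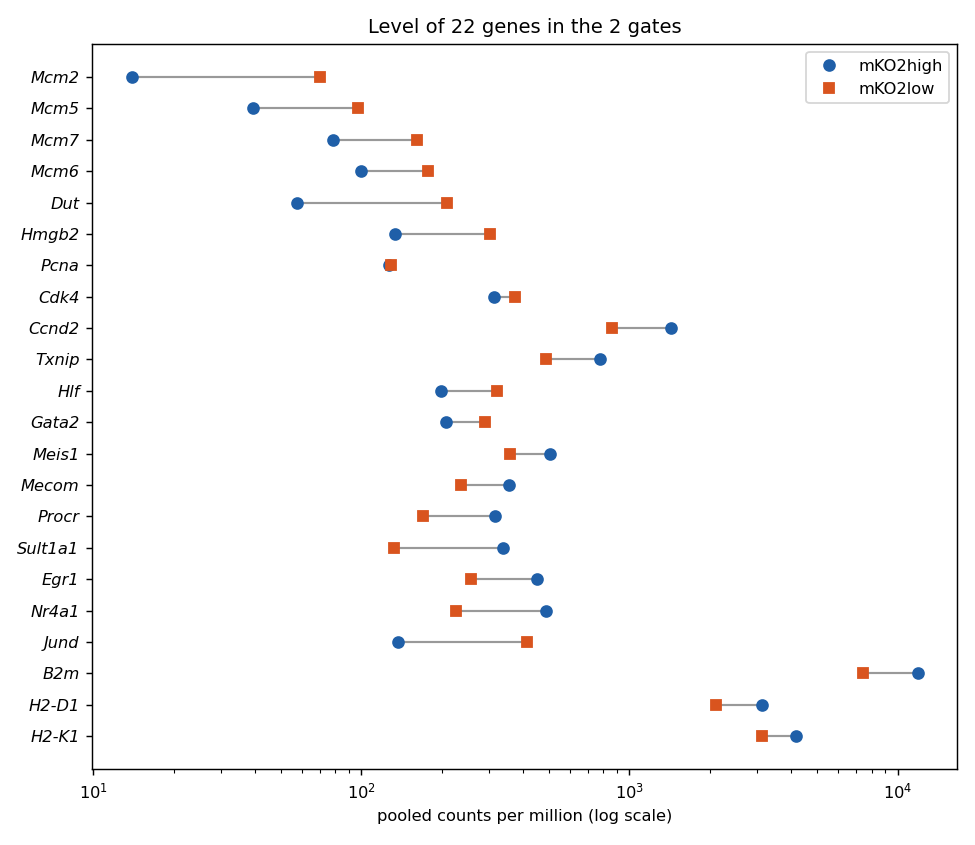
Pooled CPM on a log axis for 22 genes in mKO2high (circles) and mKO2low (squares), joined by a line for each gene. The replication genes from Mcm2 to Hmgb2 lie to the right in mKO2low, the Pcna points nearly coincide, and Ccnd2, Txnip, Procr, Sult1a1, Egr1 and the MHC class I genes lie to the left in mKO2low.

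Stem cell surface and niche genes were mostly lower in mKO2low by small amounts. Of 46 measured genes 33 were lower and 13 higher, with a median log2 ratio of -0.25 pooled and -0.24 at equal depth. Past 2-fold were 7 and 2 of them, beside 15% and 19.6% of all genes. Among the 34 with at least 100 counts 4 were past 2-fold lower and none past 2-fold higher, beside 7.05% and 7.95% of all such genes. The list made up 1.65% of the counts of the median mKO2high cell and 1.37% in mKO2low, and 14 of 48 mKO2low cells lay above the mKO2high median. Procr, the protein C receptor EPCR used to purify stem cells, was at 315 CPM in mKO2high and 170 CPM in mKO2low (log2 ratio -0.89, from -1.13 to -0.65). At 5000 counts per cell it was counted in 64.1% of mKO2high cells (47.2% to 78.8%) and 43.8% of mKO2low cells (29.5% to 58.8%), and these intervals overlap.

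Sult1a1, a sulfotransferase, had a large difference among the well-counted members, and is named after its value was seen. It had 315 counts in 37 mKO2high cells and 225 counts in 20 mKO2low cells, 337 and 132 CPM, a log2 ratio of -1.35 (-1.61 to -1.10) that was -1.78 at equal depth. Thinned, it was counted in 61.5% of mKO2high cells (44.6% to 76.6%) and 29.2% of mKO2low cells (17.0% to 44.1%). These intervals describe the cells of 1 sample per gate and are no test of a difference between the gates. Clec1a, an endothelial and stem cell lectin, had 83 and 44 counts (log2 ratio -1.75). Also named after their values were seen, Fgd5, a marker of stem cells, had 25 and 4 counts, Abcg2, the dye efflux pump of the side population, had a log2 ratio of -1.18 (-0.72 without its largest cell), and Angpt1, the ligand of the Tie2 receptor, one of -0.96. Vwf, carried by platelet-biased stem cells, had 41 and 25 counts (log2 ratio -1.53, and -0.83 without its largest cell).

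General markers of stem and progenitor cells were divided. Ly6a, the Sca-1 antigen, was at 400 CPM in mKO2high and 368 CPM in mKO2low (log2 ratio -0.12, from -0.31 to 0.07), and the receptor Kit had a log2 ratio of -0.48 (-0.79 to -0.18). Slamf1, the CD150 antigen, had 18 and 50 counts, with an interval from -0.20 to 1.47 and a log2 ratio of -0.45 at equal depth. Fhl1, a LIM protein, went against the list with 11 and 65 counts. Ifitm1, the most counted member, was at 3807 and 2856 CPM (log2 ratio -0.41).

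Transcription factors of stem cells were divided, with 15 of 36 higher and 21 lower in mKO2low and a median of -0.16. Past 2-fold were 1 and 6 of them, beside 19.6% and 15% of all genes. Among the 30 with at least 100 counts none was past 2-fold higher and 4 were past 2-fold lower, beside 7.95% and 7.05% of all such genes. Mecom, needed for stem cell maintenance, was at 357 CPM in mKO2high and 236 CPM in mKO2low (log2 ratio -0.59, from -0.81 to -0.38), and Meis1, a partner of HOX proteins, at 504 and 360 CPM (-0.49). Hlf, a marker of stem cells that opposes their entry into cycle, was higher, at 198 CPM in mKO2high and 322 CPM in mKO2low (0.70, from 0.46 to 0.95; 1.03 at equal depth). Gata2 was higher as well, at 207 and 289 CPM (0.48, from 0.24 to 0.73), while Lmo2 (0.15) and Mycn (0.00, from -0.26 to 0.25) differed little. Hoxb5 had 48 and 30 counts (log2 ratio -1.51, and -0.84 without its largest cell) and Hoxb4 had 38 and 23 (-1.54, and -0.70).

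Genes of progenitors and of lineages gave small sums. Of 19 measured progenitor and activation genes 14 were higher in mKO2low, 5 past 2-fold, with a median of 0.28. Plac8, a gene of myeloid-primed progenitors, had 18 and 127 counts (log2 ratio 1.91, from 1.23 to 2.75), the progenitor antigen Cd34 was at 83.5 and 123 CPM (0.55, from 0.17 to 0.95, and 0.05 at equal depth), and the azurophil protease Prtn3 at 354 and 429 CPM. In the same list Mpo had 0 and 7 counts, Elane had 2 and 5, and Ctsg had none in either gate. Flt3, which marks multipotent progenitors, had 6 and 15 counts, and Spi1, the myeloid factor PU.1, was lower at 382 and 161 CPM (-1.24), though -0.24 at equal depth. Among 15 megakaryocyte genes 10 were lower in mKO2low, 4 past 2-fold, with a median of -0.58 pooled, -0.32 at equal depth and -0.05 with the largest cell of each gene left out. Pf4, a platelet chemokine, had 175 and 90 counts, with 55.7% of its mKO2high per-cell CPM in 1 cell, and Gng11, a G protein subunit of platelets, was at 549 and 282 CPM (-0.96).

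**Figure D4:**
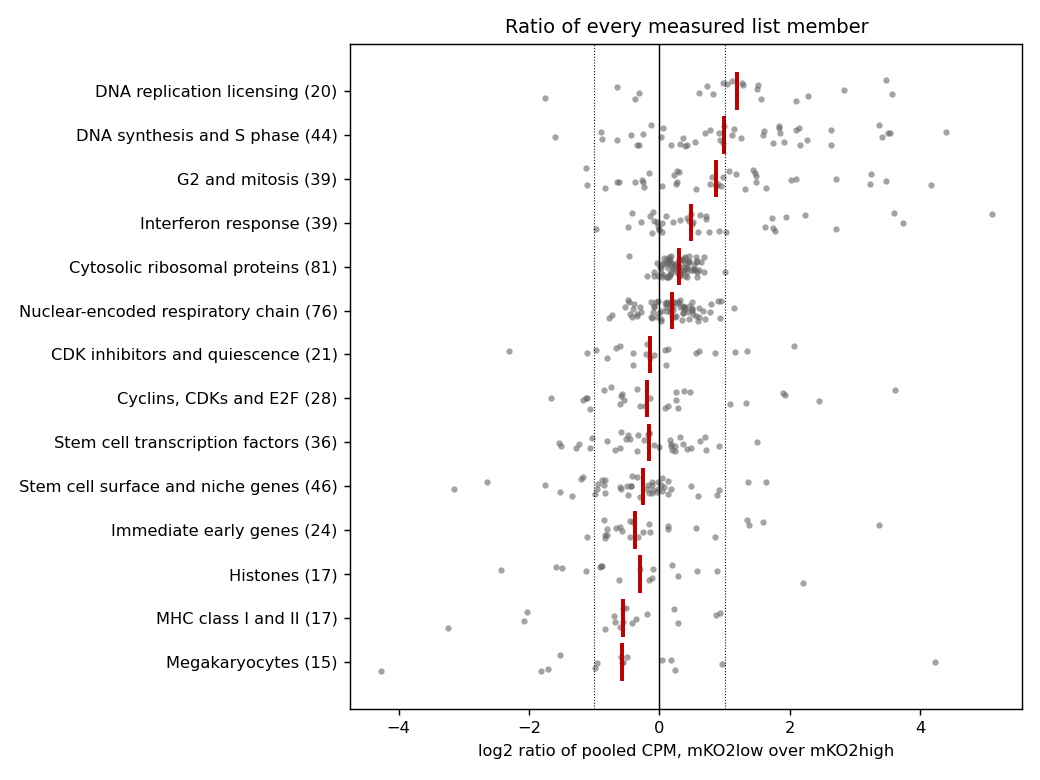
Each grey point is a measured member of a gene list (number in brackets), placed at its log2 ratio of mKO2low over mKO2high, with a red bar at the list's median and dotted lines at 2-fold, genes at 0 in a gate being placed with a prior count of 1. Among the lists drawn, medians run from 1.19 for replication licensing to -0.58 for megakaryocyte genes, and the 81 ribosomal protein genes lie close around 0.30.

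MHC genes were lower in mKO2low, and this difference was spread over the cells. Class I molecules present peptides from inside the cell to T cells, and all nucleated cells carry them. Of 13 class I and loading genes 10 were lower in mKO2low, none past 2-fold, with a median log2 ratio of -0.51 pooled and -0.37 at equal depth. Their sum was 21081 CPM in mKO2high and 14301 CPM in mKO2low. Their share of a cell's counts had a median of 2.01% in mKO2high (0.676% to 3.42%) and 1.43% in mKO2low (0.849% to 2.40%), and only 3 of 48 mKO2low cells lay above the mKO2high median. At 5000 counts per cell the medians were 2.10% and 1.46%.

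The light chain of class I molecules, B2m, was at 11918 CPM in mKO2high and 7443 CPM in mKO2low, a log2 ratio of -0.68 (-0.72 to -0.64). Cells ranged from 3323 to 18530 CPM around a median of 10780 CPM in mKO2high, and from 436 to 13630 CPM around a median of 7260 CPM in mKO2low. The heavy chains H2-K1 (log2 ratio -0.43) and H2-D1 (-0.57, named after its value was seen) moved with it, at 4191 and 3113 CPM in mKO2high and 3118 and 2101 CPM in mKO2low. Class I genes are near copies of each other, so reads may have been split among them. Per cell, the class I share went with the stem cell surface share, with a Spearman correlation of 0.50 over 48 mKO2low cells and 0.38 over 44 mKO2high cells. Both shares are parts of the same cell's total.

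Class II genes rested on few cells. Cd74, the invariant chain of class II molecules, was at 611 CPM in mKO2high and 144 CPM in mKO2low, a log2 ratio of -2.08 that was -0.36 when all cells weighed the same and 0.17 at equal depth. H2-Eb1 (105 and 19 counts) and H2-Aa (219 and 97, named after its value was seen) had the same direction, with log2 ratios of -3.25 and -2.03. Without their largest cells these were -1.68 and -1.60. Of the 895 counts of class II genes and Cd74 in mKO2high, 728 lay in 3 cells, and of the 362 in mKO2low, 210 did. The B cell receptor genes Cd79a and Cd79b had 0 and 67 counts in mKO2high and 0 and 167 in mKO2low.

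Most interferon response genes were higher in mKO2low, while their summed level did not differ much, at 10371 CPM in mKO2high and 10109 CPM in mKO2low. Of 39 measured genes 27 were higher and 12 lower, and 2 of the 39 had no mKO2high count. At least 2-fold higher were 11 of them and at least 2-fold lower none, beside 19.6% and 15% of all genes. Among the 31 with at least 100 counts 19 were higher and 5 at least 2-fold higher, beside 7.95% of all such genes. The median log2 ratio was 0.48 pooled, 0.41 at equal depth and 0.20 with the largest cell of each gene left out. The whole list made up 0.996% of the counts of the median mKO2high cell and 0.833% in mKO2low, and 19 of 48 mKO2low cells lay above the mKO2high median. The Ifitm genes, Ly6e and Bst2, 5 genes that hold most of the list's counts, were at 8063 and 6943 CPM. Ifit1, a sensor of foreign RNA and a standard interferon target, had 17 counts in 2 mKO2high cells and 391 counts in 10 mKO2low cells, of which 323 lay in 1 cell (log2 ratio 3.60, and 1.10 without its largest cell). The same cell held 92 of 122 Usp18 counts and 54 of 109 Rsad2 counts, genes named after their values were seen. Usp18, which ends interferon signalling, had a log2 ratio of 1.78 that was -0.20 without its largest cell. Stat2, the transducer of type I interferon signalling, was less concentrated, with 6 counts in 4 mKO2high cells and 56 counts in 15 mKO2low cells (log2 ratio 2.23, from 1.14 to 3.86). With those 5 genes set aside, the list summed to 2308 and 3167 CPM, its share of the counts was 0.196% in the median mKO2high cell and 0.219% in mKO2low, and the highest cells reached 0.810% and 2.66%.

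Promoter sequence is given for both groups because interferon acts through an element of GAAA, any 2 bases and GAAA again, searched here on both strands of the same windows. Of the 39 interferon genes 28 matched a window and 16 of these (57.1%) held the element, beside 1079 of 27025 genes (3.99%). The stretches below, from genes higher in mKO2low and from B2m, which was lower, carry it in capitals.
Ifit1: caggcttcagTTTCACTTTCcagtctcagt
Isg15: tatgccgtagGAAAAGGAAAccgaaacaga
Rsad2: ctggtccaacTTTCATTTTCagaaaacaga
Stat2: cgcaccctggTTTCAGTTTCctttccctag
B2m: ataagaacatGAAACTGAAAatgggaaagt
They lie at chr19:34640775-34640804 (plus strand), chr4:156200877-156200906 (minus), chr12:26456553-26456582 (minus), chr10:128270266-128270295 (plus) and chr2:122147538-122147567 (plus). Isg15, a ubiquitin-like protein of the response named after its value was seen, had 9 and 58 counts, 23 of the latter in the interferon-rich cell. The median log2 ratio was 0.51 for the 16 interferon genes with the element and 0.28 for the other matched genes, a difference that was not tested. B2m, which also holds the element and was lower in mKO2low, is not in the interferon list.

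**Figure D5:**
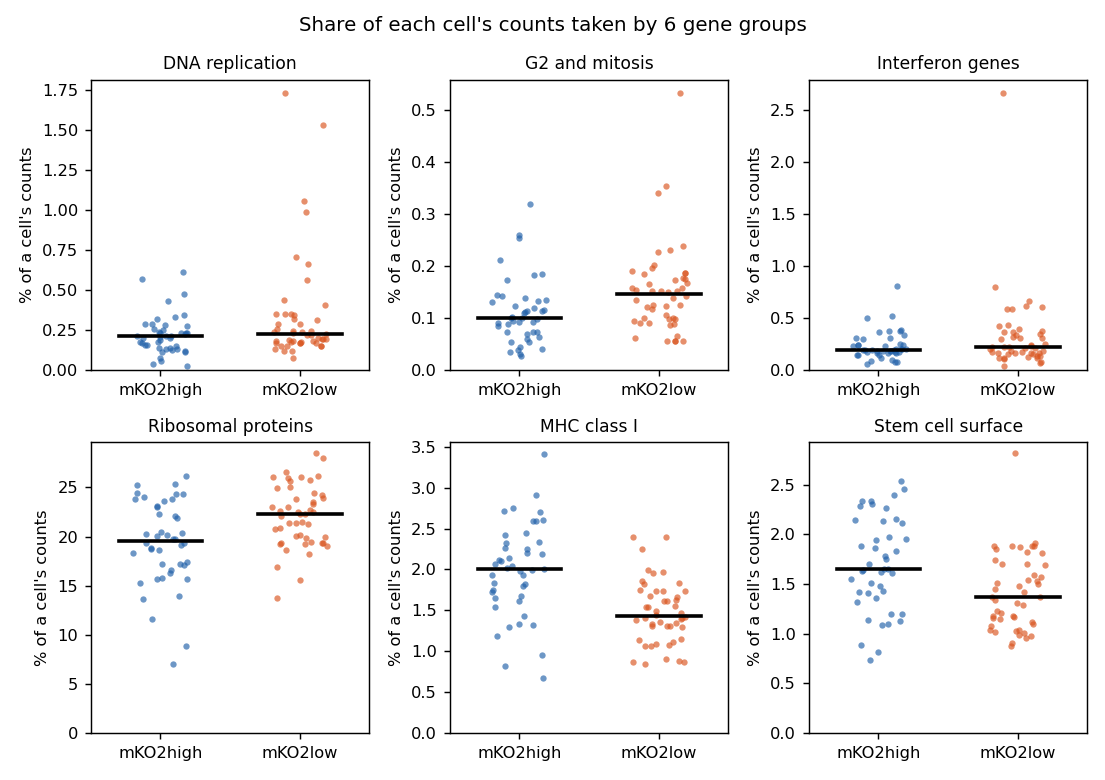
Percent of each cell's counts taken by 6 gene groups in mKO2high (44 cells of at least 1000 counts) and mKO2low (48 cells), with each point a cell and a black bar at the median. DNA replication and interferon genes (drawn without the Ifitm genes, Ly6e and Bst2) have close medians with a few high mKO2low cells, whereas ribosomal proteins and MHC class I differ at the median.

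Immediate early genes, which stimulation or handling of cells switches on within minutes, were mostly lower in mKO2low and varied widely between cells. Of 24 measured genes 16 were lower and 8 higher, 1 and 4 past 2-fold, with a median of -0.37 pooled and -0.46 at equal depth. Per cell, the list's share of counts had a median of 1.04% in mKO2high (0.0775% to 2.68%) and 0.738% in mKO2low (0.0488% to 2.56%), so the gates overlapped over nearly their whole range. Without the 7 genes shared with the quiescence list the medians were 0.686% and 0.673%. Egr1, a zinc finger factor linked to stem cell quiescence, was at 452 CPM in mKO2high and 257 CPM in mKO2low (log2 ratio -0.81, from -1.01 to -0.62), and Ier2 at 1902 and 1088 CPM (-0.81). Nr4a1, an orphan receptor also linked to quiescence and named after its value was seen, was at 489 and 225 CPM (-1.12, and -0.83 without its largest cell). Fos, an AP-1 subunit and the most counted member, differed less, at 2430 and 2037 CPM (-0.25).

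Jund, an AP-1 subunit, was on the other side. It had 128 counts in 20 mKO2high cells and 708 counts in 40 mKO2low cells, 137 and 416 CPM, a log2 ratio of 1.60 (1.33 to 1.88). Thinned, it was counted in 33.3% of mKO2high cells (19.1% to 50.2%) and 64.6% of mKO2low cells (49.5% to 77.8%). These intervals overlap, and the thinned log2 ratio was 1.59. The phosphatase Dusp5 was higher as well, with 34 and 162 counts (1.37, and 0.72 without its largest cell).

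Ribosomal protein genes were higher in mKO2low as a body and by little. Of 81 genes 75 were higher, 1 of them past 2-fold, with a median log2 ratio of 0.30 pooled, 0.24 at equal depth and 0.17 with the largest cell of each gene left out. Their share of a cell's counts had a median of 19.6% in mKO2high (7.01% to 26.2%) and 22.3% in mKO2low (13.7% to 28.5%), and 36 of 48 mKO2low cells lay above the mKO2high median. Rpl13, a protein of the large subunit, was level at 7105 CPM in mKO2high and 7166 CPM in mKO2low. Rpl23a had the largest ratio of the list (1.00 pooled, 0.40 at equal depth). Of the genes of ribosome biogenesis, the nucleolar proteins Npm1 (0.49) and Ncl (0.51) were higher, whereas Myc, which drives this programme, was lower at 301 and 188 CPM (-0.67, from -0.91 to -0.44), and the median of 48 genes was 0.13 pooled and -0.11 at equal depth.

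Nuclear genes of the respiratory chain had a median log2 ratio of 0.20, with 53 of 76 higher in mKO2low and 1 past 2-fold. That gene was Ndufs6, a subunit of complex I, at 151 and 333 CPM (1.14, from 0.87 to 1.42). Subunits of complex IV and the ATP synthase, Cox4i1 (-0.03) and Atp5b (0.19), were near level. Of 15 listed mitochondrially encoded genes 5 (mt-Nd4l, mt-Co2, mt-Co3, mt-Atp6 and mt-Atp8) had no count in either gate, and the reason was not tested. The 10 measured had a median of -0.02. It was 0.36 once the mKO2high cell with 43.7% of such counts and the shallow cells were left out. Among the measured genes, pooled with that cell kept in, mt-Rnr2, the large ribosomal RNA, was at 19758 and 13837 CPM (-0.51). Pooled in the same way, mt-Cytb of complex III was at 4887 and 6054 CPM (0.31). Per cell, the list's share of counts had a median of 3.375% in mKO2high and 3.645% in mKO2low. Of 17 histone genes 12 were lower in mKO2low, with a median of -0.30; the linker histone Hist1h1c was at 460 and 210 CPM (-1.13), and core histone genes have near-identical copies whose reads cannot be assigned with certainty.

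By the rule of largest ratio, which asks that 12 or more cells of the higher gate have a count, at most 25% of its per-cell CPM in 1 cell and 2-fold under each of 3 weightings, 211 genes were eligible toward mKO2low and 73 toward mKO2high. A count in 12 cells is easier to reach in mKO2low, whose cells were deeper, so these numbers do not compare the gates. The first 15 toward mKO2low were Ccnc, Iah1, Etaa1, Rhbdd3, Tyms, Pde4a, Daxx, Tbp, Taok1, Csrp1, Dcaf4, Asxl2, Cmtm8, Zbtb14 and Wdr83, of which none had more than 7 counts in mKO2high. Tbp, the TATA-binding protein, had 3 counts in 2 mKO2high cells and 64 counts in 18 mKO2low cells. Csrp1, a LIM protein of the actin cytoskeleton, had 7 and 129 counts, and Daxx, a chaperone of histone H3.3, had 3 and 64.

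Toward mKO2high the first 15 were Rin3, Sh3bp5, Soga1, Cd55, Lars2, Usp7, Iqcb1, Appl2, Brap, Nabp1, Clu, Pepd, Zfp574, Cept1 and Zfp617. Rin3, an exchange factor for Rab5 proteins, had 105 counts in 12 mKO2high cells and 14 counts in 7 mKO2low cells (log2 ratio -3.66, from -4.69 to -2.96). Sh3bp5, an exchange factor for Rab11, had 63 and 13 counts. Cd55, the complement decay-accelerating factor, had 98 and 31 counts (-2.48), and clusterin (Clu), a secreted chaperone found in aged and platelet-biased stem cells, had 84 and 39, with 54.2% of its mKO2low per-cell CPM in 1 cell. Lars2, a mitochondrial leucyl-tRNA synthetase, had 85 and 30 counts. Part of its annotated sequence is like mitochondrial ribosomal RNA, so its reads are uncertain. The pooled level of mt-Rnr2 was lower in mKO2low as well, with the mKO2high cell rich in mitochondrial counts kept in. Its level without that cell is not given here. The median log2 ratio of the measured mitochondrially encoded genes was 0.36 once that cell and the shallow cells were left out. Any link of mt-Rnr2 to the Lars2 ratio was not tested.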

How the data were processed

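Single-cell RNA sequencing counts of 48 mKO2low and 48 mKO2high cells were analysed. The deposited values are raw counts, whole numbers for each gene row in each cell, with no normalization by the authors. The submitters' processing notes list HISAT2, HTSeq 0.11.3, Seurat and mm10 without saying what each was used for. The sources used here do not state the annotation release, the strand setting or any use of molecular identifiers, so overlapping genes cannot be told apart. Of 53378 rows, 53273 were found in GENCODE M21 by gene identifier; the other 105 held 0.222% of counts. Each gene was read from the row of the gene before it.

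Counts were summed per gate and scaled to CPM, and log2 ratios used a prior count of 1 on genes with at least 10 counts. Cells were thinned to 5000 counts with a fixed seed. For equal weight, per-cell CPM were averaged over cells of at least 1000 counts. Python 3.11.15, numpy 2.4.6, pandas 2.3.3 and scipy 1.17.1 were used, with edgeR 4.0.16 and DESeq2 1.42.0 in R 4.3.3 for alternative scaling factors only; the ratio and interval were tested on simulated data. No test was run, as each gate is 1 sample. The alternatives were 2 other scalings, equal weight, thinning, other count filters, a cell quality filter, leaving out each gene's largest cell, a prior count of 5 and other readings of the labels. No doublet caller was run.

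The gates compared, the 39 gene lists and the genes were chosen with earlier results of these data known. Genes were named by a rule: the 15 largest ratios in each direction among protein-coding genes with the limits given above, up to 4 members of each list (2 with the most counts and 2 of at least 50 counts with the largest ratio) and 40 core genes. Some genes the rule names are not reported here. Genes outside it are said to be named after their values were seen. Promoter windows are from RefSeq (GRCm38.p6).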

Additional observations from a re-analysis of the deposited data

How the results depend on the processing

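No paired analysis was possible because each gate is 1 sample and its cells carry no shared numbers. Genes at least 2-fold higher in mKO2low numbered 2136, and 706 at 5000 counts per cell, 3490 with no filter on counts and 821 with at least 50 counts; those lower numbered 1630, and 605, 3617 and 666, and 1005 with each gene's largest cell left out. While the row of the preceding gene was kept, 158 of 162 alternative list medians stayed within the 95% range that the ranks of the members give around the main median, which describes the members and is no test, and no median whose range excluded 0 changed sign. The 4 that moved were S phase at 5000 counts per cell (0.35), mitochondrially encoded genes in cells of at least 1000 genes and under 20% mitochondrial counts (0.36), and ribosomal proteins (0.17) and respiratory chain genes (0.077) without each gene's largest cell. Of 701 such alternatives for single genes 2 turned a ratio of at least 2-fold around, Cd74 at 5000 counts per cell (0.17) and Usp18 without its largest cell (-0.20).

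Other readings of the labels take another gene's row. With the labels as deposited the medians were 0.24 for licensing, -1.03 for quiescence, -0.018 for stem cell surface, -0.36 for ribosomal proteins, -0.19 for ribosome biogenesis, 0.55 for respiratory chain, 0.14 for MHC and 0.24 for histone genes. With the row of the following gene they were 0.41 for licensing, 0.40 for S phase, -0.23 for mitosis, 0.26 for stem cell surface, -0.050 for ribosomal proteins, -0.24 for respiratory chain, 0.72 for glycolysis, -0.029 for MHC and 0.52 for histone genes. Reversed log2 ratios as deposited were -1.16 for Mcm2, -0.37 for Cdt1, -0.20 for Gmnn, -0.83 for E2f4, -0.42 for Dusp5, -2.55 for Ifit1, -0.16 for Rsad2, -0.054 for Ndufs6, -0.36 for Daxx and 0.77 for Lars2. With the following gene they were -0.25 for Tk1, -0.70 for Hmgb2, -1.71 for Fhl1, 1.44 for Abcg2, -1.07 for Dusp5, 0.18 for Cd74 and 0.040 for Sh3bp5.

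The median mKO2low cell had 1899.5 genes with a count at 5000 counts, against 3507.5 at full depth. At full depth Sult1a1 was counted in 77.1% of mKO2high cells, Dut in 66.7% and Jund in 83.3% of mKO2low cells. Depth limits the genes of few counts: the floor of 3 counts is 3.21 CPM in mKO2high and 1.76 CPM in mKO2low.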
